A study of Mus musculus with 46 samples.

Results

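MC-38 tumors from mice that had received PD-1 antibody were compared between 2 times, day 15 and day 11 after tumor implantation. MC-38 is a mouse colon carcinoma cell line, and muDX400 is the antibody to mouse PD-1 that the sample labels name. The 10 tumors are the FPKM columns labelled with 1 dose of muDX400 (5 tumors, treatment day 4, day 11 after implantation) and with 2 doses (5 tumors, treatment day 8, day 15), out of 46 samples in the series. All of these mice were wild-type female C57BL/6NTac animals of 8 to 10 weeks, carried MC-38 cells under the skin of the flank, and were dosed at 5 mg/kg every 4 days from day 7. No mouse gave a tumor at both times, and each tumor was profiled whole by total RNA-seq, so tumor cells, immune cells and adjoining tissue are measured together. Groups of 5 tumors from mice given an isotype control antibody on the same schedule, otherwise the same strain and cells, cover the same interval and are given beside the treated tumors.

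PD-1, encoded by Pdcd1, is an inhibitory receptor of activated T cells that is engaged by PD-L1 and PD-L2 on tumor and myeloid cells. Antibodies that block it release signaling downstream of the T cell receptor. In transplanted mouse tumors the response is known to involve CD8 T cells that kill with perforin and granzymes, interferon-γ that raises antigen presentation, and macrophages and dendritic cells that present antigen and attract T cells.

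Values are FPKM, the fragments of a gene scaled to its transcript length and to the mapped fragments of the library, and they carry no depth. Fold changes are of log2(FPKM + 0.1), day 15 over day 11, with the standard error (SE) of the limma fit, also written after ±. A gene is said to have risen or fallen where the Benjamini-Hochberg adjusted p over all tested genes was under 0.05, and the stricter calls at 0.01 with at least a 2-fold change are given as such. Replicate numbers only name tumors. Lists of genes are described by counts and medians without a test of their own.

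The libraries did not all resemble their groups, and the libraries of the 2 days differed in more than the day. Day-15 replicate 5 correlated with the others of its group at a median r of 0.938, against 0.963 over all pairs of the group, and its T cell, macrophage and endothelial genes lay near the day-11 tumors. The counts of the main lists are therefore also given without it. Leaving out a tumor near day 11 widens the difference between days for these genes, so those counts are no separate support. Transcript length moved with the day: genes whose longest transcript has up to 1000 bases had a median log2 change of 0.28, and those in the bin of the longest transcripts -0.13. The slope was steeper in the isotype tumors, at 0.40 and -0.29, where day-15 replicates 3 and 5 were lowest in the longest transcripts. Of the treated tumors day-15 replicate 4 was lowest in them. The part of transcript length in the results was not tested beyond a repeat with the length trend removed. The identifiers of the day-15 and day-11 samples belong to separate runs of numbers in both antibody groups, so a difference between those runs and the day cannot be told apart. One isotype day-11 tumor, replicate 1, had 54.6% of its FPKM in mitochondrially encoded genes, against 2.89% to 4.44% in the treated tumors, and isotype values are given without it unless stated. That percentage was lower in every treated tumor of day 15 (mean 3.31 ± 0.239 SD) than in those of day 11 (3.88 ± 0.326 SD, exact permutation p = 0.00794, 2-sided, the smallest that 5 against 5 allows).

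**Figure D1:**
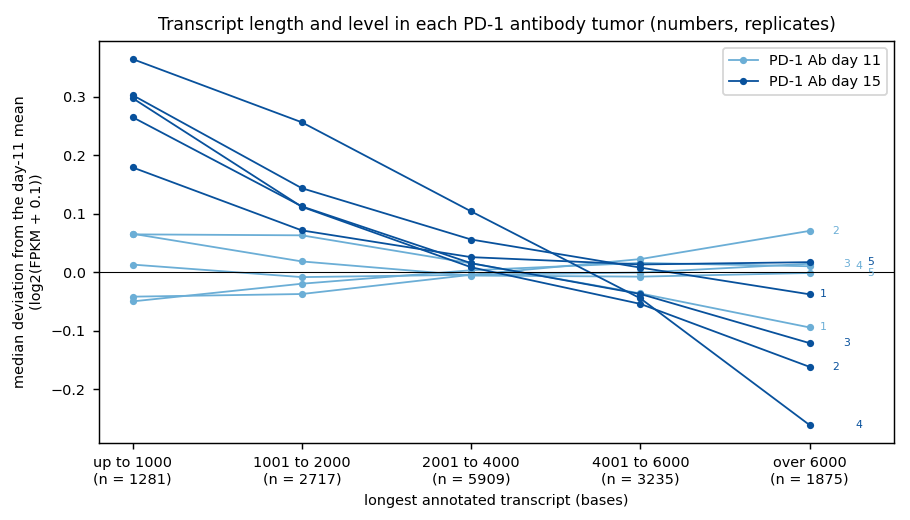
Transcript length and level in the 10 PD-1 antibody tumors. The x axis bins the tested genes by their longest annotated transcript in bases, the y axis gives the median difference of log2(FPKM + 0.1) from the day-11 mean, and each line is 1 tumor with its replicate number. All 5 day-15 tumors lie above the day-11 tumors for the shortest transcripts, and replicate 4 is lowest for the longest.

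Tissue around the tumor was present in unequal amounts. Adipoq, the fat cell hormone adiponectin, was at 0.553, 11.7, 2.03, 17.3 and 6.24 FPKM in the day-11 tumors and at 29.2, 48.5, 43.9, 55.7 and 2.02 FPKM in the day-15 tumors. Day-15 replicates 1 to 4 thus held more of this fat cell transcript than every day-11 tumor, and replicate 5 did not. With all tumors Adipoq did not pass (log2 change 2.40 ± 1.04, adjusted p = 0.124). The summed level of the 18 adipose genes was 109.8 to 578 FPKM at day 11, 1021 to 1683 FPKM in day-15 replicates 1 to 4 and 184 FPKM in replicate 5. It was 184 to 334 FPKM at day 11 and 154 to 324 FPKM at day 15 under the isotype antibody. Skeletal muscle genes were high instead in day-11 replicates 2 and 3 (summed 737 and 244 FPKM) and in day-15 replicate 5 (118 FPKM), with Acta1, skeletal muscle actin, at 0.185, 168, 63.1, 1.43 and 0.138 FPKM at day 11. The same 4 day-15 tumors that were rich in adipose transcripts were those in which the immune and vascular genes below were high, and the part of the adjoining tissue in those results was not tested.

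Of 15052 tested genes, 1588 rose (10.6%) and 824 fell (5.47%). At adjusted p under 0.01 with at least 2-fold, 9 genes were called (0.0598% of those tested), 8 higher and 1 lower. Without day-15 replicate 5 these became 2983 higher (19.7%) and 1909 lower (12.6%), which is 32.3% of those tested, with 849 stricter calls. Of the 2412 genes called with all tumors, 2397 were also called without it, in the same direction, which is 99.4% of the first list and 49.0% of the second. That overlap is no separate support, because the tumor left out lay near day 11 in many genes. The count rested on single tumors in the other direction too: it was 33 without day-15 replicate 3, 723 without replicate 2 and 966 without replicate 1, and 487, 623 and 1034 without day-11 replicates 3, 4 and 5. Without replicate 3 all but 4 of the lists described here had 0 genes past 0.05, the macrophage list keeping 2, with a median of 0.80 on that list against 0.87 with all tumors. The split between higher and lower depended on the scaling, with 1260 higher and 1081 lower under median-of-ratios scaling and 1104 higher and 1353 lower when mitochondrially encoded genes were left out of the total. Every count on a gene list below is to be read beside the shares of all tested genes. These are 10.6% that rose and 5.47% that fell, and 19.7% and 12.6% without day-15 replicate 5.

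T cell genes were among those that rose. Cd8a, the α chain of the CD8 coreceptor of cytotoxic T cells (chr6:71373427-71379173, GRCm38), was at 4.17, 15.1, 6.62, 10.1 and 10.9 FPKM in the day-11 tumors and at 26.1, 41.4, 34.1, 27.5 and 10.3 FPKM in the day-15 tumors. Of the 5 day-15 tumors, 4 lay above every day-11 tumor, and replicate 5 lay within the day-11 range (log2 change 1.55, SE 0.40, adjusted p = 0.0292). Without replicate 5 the change was 1.88 (adjusted p = 0.00198). Cd8b1, the β chain, was at 2.41–9.36 FPKM and then 6.57–29.1 FPKM (log2 change 1.6, SE 0.42, adjusted p = 0.0316). Cd3g, a signaling chain of the T cell receptor complex, went from 4.11–13.6 to 8.65–35.3 FPKM (log2 change 1.48, SE 0.41, adjusted p = 0.036). Cd247, the ζ chain, was at 3.05, 5.71, 4.89, 5.54 and 5.20 FPKM at day 11 and at 7.38, 10.9, 9.28, 8.85 and 6.29 FPKM at day 15. Its groups did not overlap (log2 change 0.80, SE 0.19, adjusted p = 0.0245), which was so for 5.39% of all tested genes in the upward direction. In whole tumors, more cells of a type and more RNA per cell cannot be told apart.

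Among the 18 tested genes of the CD8 and T cell receptor list, 11 rose and 0 fell, with a median log2 change of 1.23, beside 10.6% of all tested genes that rose and their median of 0.03. The other members that rose included Lat, Lck, Cd6, Cd3e, Trbc2 and Trac. Cd3e, Trbc2 and Trac encode chains of the receptor complex, Lat and Lck its adaptor and kinase, and Cd6 a separate surface receptor of T cells. Without day-15 replicate 5, 17 of the 18 rose (background 19.7%), with a median of 1.53. Without replicate 3, 0 rose and the median was 1.11, and without replicate 4, 1 rose with a median of 1.20. Over the same interval the median of the list in the isotype tumors was -0.05. None of its genes passed there, and neither did any of all 14538 tested genes.

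**Figure D2:**
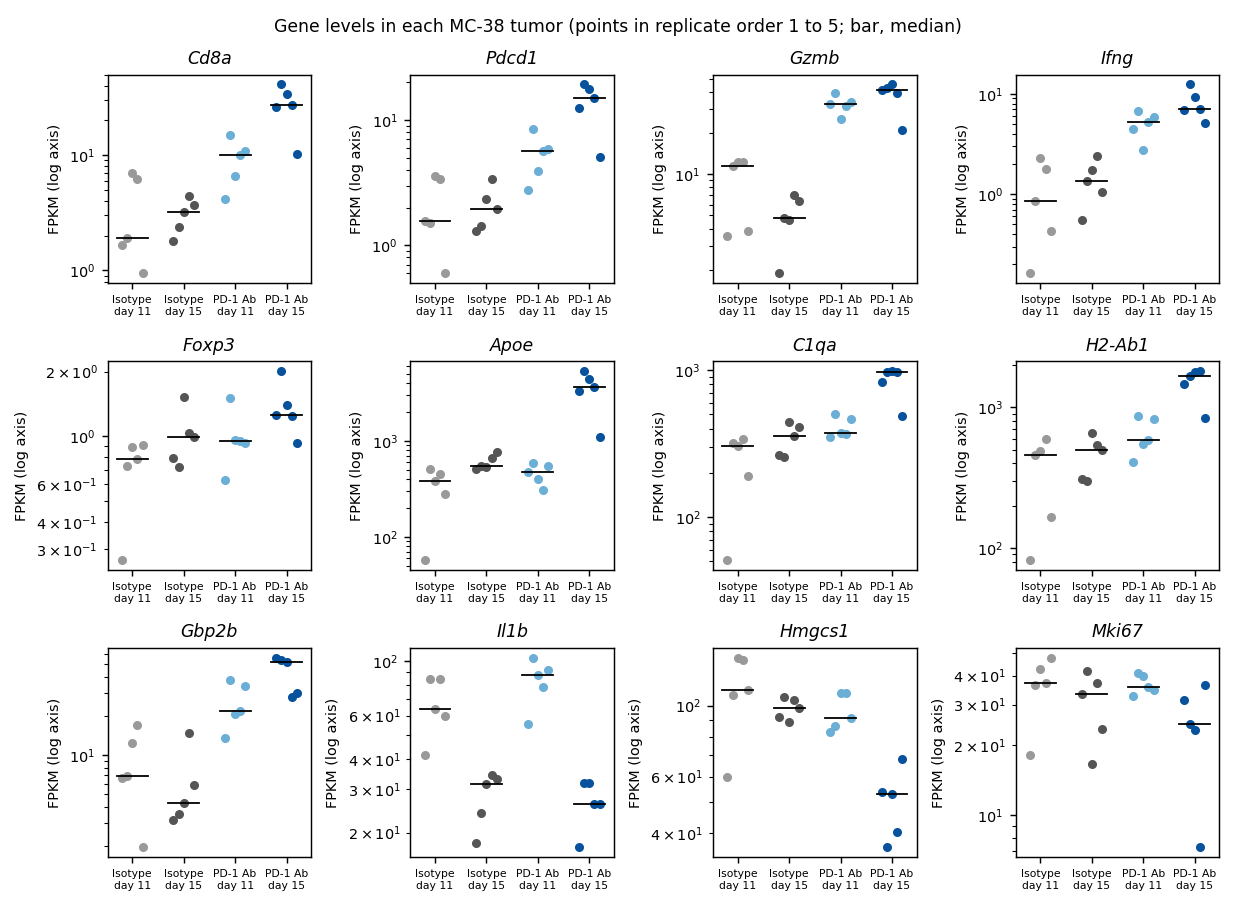
Levels of 12 genes in each tumor of the 4 antibody groups. Each panel is 1 gene, the y axis is FPKM on a log scale, points are tumors in replicate order and bars are medians. Cd8a, Pdcd1, Apoe, C1qa and H2-Ab1 were highest in day-15 replicates 1 to 4 of the PD-1 antibody, and Il1b was lower at day 15 under both antibodies.

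Genes of cell killing did not all rise. Nkg7, a granule protein of cytotoxic lymphocytes, was at 9.94, 21.6, 11.8, 18.9 and 16.3 FPKM at day 11 and at 41.0, 66.4, 57.8, 41.4 and 17.5 FPKM at day 15. Replicates 1 to 4 of day 15 exceeded all of day 11, with replicate 5 inside the day-11 range (log2 change 1.43, SE 0.34, adjusted p = 0.0235). Fasl, the death ligand of the Fas receptor, went from 0.692–1.38 to 0.986–5.07 FPKM (1.40 ± 0.36, adjusted p = 0.0303), and Prf1, the pore-forming perforin, from 4.92–12.0 to 9.05–25.1 FPKM (1.05 ± 0.30, adjusted p = 0.0388). Gzmb, granzyme B, was already at 32.4, 39.5, 25.2, 31.7 and 33.9 FPKM at day 11 and was at 41.3, 42.9, 45.6, 39.5 and 20.9 FPKM at day 15. It was slightly higher in 4 tumors and lowest of all 10 in replicate 5, and it did not pass with all tumors (log2 change 0.19, SE 0.20, adjusted p = 0.511), whereas it did without replicate 5, at 0.39 (adjusted p = 0.024). Gzma, granzyme A, fell, from 5.60–9.07 to 2.40–6.94 FPKM (-0.82 ± 0.24, adjusted p = 0.0435). Ifng, the cytokine interferon-γ, was at 4.52, 6.76, 2.75, 5.23 and 5.94 FPKM and then 6.99, 12.6, 9.33, 7.10 and 5.16 FPKM, a difference that did not pass (log2 change 0.69, SE 0.27, adjusted p = 0.0924). In all, 3 of the 18 tested cytotoxic effector genes rose and 1 fell, with a median of 0.19, beside 10.6% and 5.47% of all tested genes. The 1 that fell is thus a share close to that of all genes. Without replicate 5 the counts were 9 and 1 (background 19.7% and 12.6%). Klrd1, the CD94 receptor shared by NK and CD8 T cells, was the 1 gene of 14 on the NK list that rose (1.15 ± 0.31, adjusted p = 0.0326), a smaller share than the 10.6% of all tested genes. Without replicate 5, 5 of the 14 rose and 1 fell. Its partner Klrc1, NKG2A, was at 1.48–8.504 and then 5.18–15.4 FPKM (1.06 ± 0.44, adjusted p = 0.113).

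Some inhibitory receptors and factors of exhausted T cells rose with the T cell receptor genes. Pdcd1, the target of the antibody, was at 2.78, 8.51, 3.91, 5.66 and 5.83 FPKM at day 11 and at 12.6, 19.4, 17.8, 15.0 and 5.10 FPKM at day 15. In day-15 replicates 1 to 4 it lay above all of day 11 (log2 change 1.34, SE 0.37, adjusted p = 0.0373), and without replicate 5 the change was 1.66 (adjusted p = 0.00185). Under the isotype antibody Pdcd1 was at 0.597–3.57 FPKM at day 11 and 1.30–3.36 FPKM at day 15. Tbx21, the T-bet factor of type 1 responses, went from 0.646–1.66 to 1.25–3.78 FPKM (1.15 ± 0.31, adjusted p = 0.0327). Entpd1, the ectoenzyme CD39, went from 18.8–29.3 to 24.0–56.0 FPKM (0.89 ± 0.21, adjusted p = 0.0235). Prdm1, the Blimp-1 factor of terminal differentiation, was the 1 gene of this list that fell, at 17.5, 15.9, 17.5, 15.2 and 19.3 FPKM and then 9.80, 10.9, 8.68, 7.31 and 13.3 FPKM. All 5 day-15 tumors lay below all 5 of day 11 (-0.79 ± 0.14, adjusted p = 0.0156), as did 4.96% of all tested genes. In the isotype tumors the change of Prdm1 was -0.53 ± 0.23, adjusted p = 0.283. Of the 19 genes of the coinhibitory and exhaustion list, 9 rose, among them Id2, Lag3, Tox, Havcr2, Batf and Tigit, and 1 fell, with a median of 0.77. Whether or not they passed, 15 changes were above 0 and 4 below. Without replicate 5, 10 rose and 1 fell, and without replicate 3 none passed, at a median of 0.67. Cd274, which encodes the ligand PD-L1, was at 32.6–50.7 FPKM and then 35.7–64.8 FPKM and did not pass (0.28 ± 0.18, adjusted p = 0.257).

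From the list of naive and memory T cell genes, 5 of 15 rose and 0 fell, against 10.6% of all tested genes that rose, and 11 of the 15 changes were above 0 (median 0.82). Without replicate 5, 9 rose and 1 fell (background 19.7% and 12.6%), and without replicate 3, 0 passed. Cxcr6, a chemokine receptor of tissue T cells, went from 1.94–10.4 to 6.85–29.7 FPKM (1.64 ± 0.46, adjusted p = 0.0373), and its ligand Cxcl16 from 60.0–80.0 to 76.9–125 FPKM (0.64 ± 0.14, adjusted p = 0.019). Itgae, the integrin CD103 of resident T cells and of cross-presenting dendritic cells, was at 0.465, 1.17, 0.862, 1.01 and 1.14 FPKM and then 2.24, 2.44, 2.71, 2.33 and 1.20 FPKM. Its groups did not overlap (1.16 ± 0.28, adjusted p = 0.0248). Its partner chain Itgb7 went from 2.84–9.66 to 7.33–19.5 FPKM (1.13 ± 0.33, adjusted p = 0.0436), and Cx3cr1, the fractalkine receptor of macrophages and effector T cells, from 9.79–19.2 to 17.9–46.1 FPKM (1.23 ± 0.25, adjusted p = 0.0166). Klf2, a factor of T cell trafficking, was the fifth of them. Of 13 costimulatory genes, 3 rose (10.6% of all tested genes), and 6 rose and 1 fell without replicate 5 (background 19.7% and 12.6%). The 3 were Icosl (0.56 ± 0.14, adjusted p = 0.0292), Slamf7 (0.76 ± 0.21, adjusted p = 0.0364) and Cd80 (0.76 ± 0.23, adjusted p = 0.0486), and Tnfrsf4, the OX40 receptor, did not pass (0.70 ± 0.25, adjusted p = 0.0729).

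Genes of CD4 and regulatory T cells were set against Cd8a. Cd4 was at 1.55, 2.90, 1.54, 2.38 and 2.499 FPKM at day 11 and at 3.18, 6.45, 5.13, 4.20 and 1.84 FPKM at day 15, and it did not pass (log2 change 0.83, SE 0.31, adjusted p = 0.085). Foxp3, the factor of regulatory T cells, was at 0.625, 1.499, 0.962, 0.951 and 0.932 FPKM and then 1.26, 2.01, 1.39, 1.25 and 0.928 FPKM, with overlapping groups (log2 change 0.43, SE 0.25, adjusted p = 0.237). Ikzf4, the Eos factor, was the 1 gene of 9 on the CD4 helper and regulatory list that rose, from 0.0174–0.354 to 0.543–1.28 FPKM (1.5 ± 0.42, adjusted p = 0.0366), and all its values were near or below 1 FPKM. Without replicate 5, 4 of the 9 rose and 1 fell. The log2 ratio of Cd8a to Cd4 within each tumor was 1.37, 2.34, 2.03, 2.03 and 2.09 at day 11 and 3.002, 2.66, 2.71, 2.68 and 2.42 at day 15. The groups did not overlap, and the means differed by 0.72 (1.97 ± 0.360 SD and 2.70 ± 0.206 SD, n = 5 each, exact permutation p = 0.00794, 2-sided, the smallest possible). For Cd8a to Foxp3 the log2 ratio was 2.56, 3.25, 2.66, 3.27 and 3.42 at day 11 and 4.27, 4.30, 4.52, 4.36 and 3.34 at day 15. Replicate 5 lay within the day-11 range, and the means differed by 1.13 (3.03 ± 0.392 SD and 4.16 ± 0.466 SD, n = 5 each, exact permutation p = 0.0159).

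**Figure D3:**
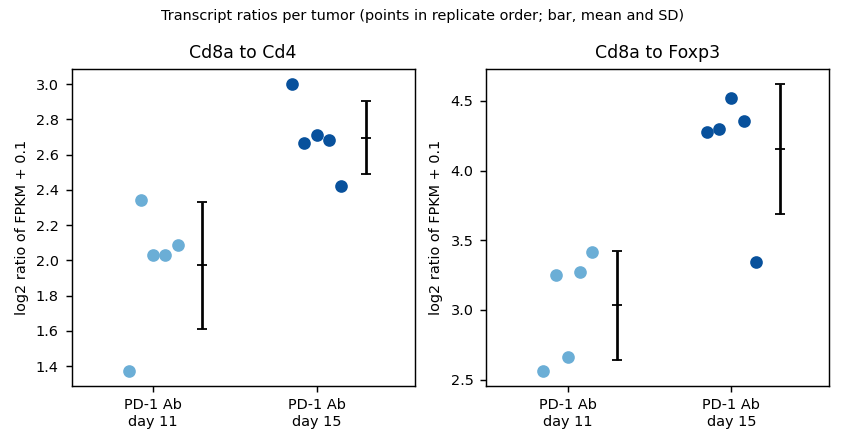
Log2 ratios of Cd8a to Cd4 and of Cd8a to Foxp3 in each PD-1 antibody tumor at day 11 and day 15, computed on FPKM + 0.1. Points are tumors in replicate order, and bars give the mean and SD of 5 tumors. The Cd8a to Cd4 ratio of every day-15 tumor, 2.42 or more, exceeded the highest of day 11, 2.34.

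Macrophage genes rose, and 2 of them passed the stricter threshold. Apoe, the lipid carrier apolipoprotein E that macrophages secrete (chr7:19696109-19699188), was at 473, 583, 403, 305 and 550.0 FPKM at day 11 and at 3326, 5335, 4355, 3614 and 1099.7 FPKM at day 15. Every day-15 tumor, replicate 5 included, lay above all of day 11 (log2 change 2.80, SE 0.37, adjusted p = 0.00958). Trem2, a lipid-sensing receptor of macrophages, was at 10.8, 14.5, 13.1, 10.6 and 11.9 FPKM and then 42.6, 67.1, 50.3, 46.7 and 21.8 FPKM, again with no overlap (log2 change 1.82, SE 0.24, adjusted p = 0.00958). Cd68, a lysosomal protein of macrophages, went from 66.3–78.7 to 87.7–186 FPKM (0.92 ± 0.17, adjusted p = 0.0156). Apoe in isotype tumors was at 278–506 FPKM at day 11 and 507–759 FPKM at day 15 (0.59 ± 0.18, adjusted p = 0.252). Of 22 macrophage genes 13 rose and 0 fell, with a median of 0.87, and without replicate 5 the counts were 14 and 0. Without day-15 replicate 3 the counts were 2 and 0.

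Complement and Fc receptor genes followed. C1qa, a chain of the complement recognition protein C1q made largely by macrophages, was at 349, 507, 374, 368 and 463 FPKM at day 11 and at 838, 967, 990.0, 979 and 492 FPKM at day 15. Replicates 1 to 4 of day 15 lay above all of day 11, and replicate 5 lay between the 2 highest day-11 tumors (log2 change 1.02, SE 0.19, adjusted p = 0.0158). C1qc changed likewise (1.08 ± 0.20, adjusted p = 0.0158), and so did Fcer1g, the signaling chain of activating Fc receptors (0.79 ± 0.16, adjusted p = 0.0168). Of the 19 genes of this list 10 rose and 0 fell, with a median of 0.82, and 14 rose without replicate 5. Monocyte genes split, with Itgam, the integrin CD11b, higher (0.62 ± 0.16, adjusted p = 0.0292) and 2 genes lower: Nr4a1, a factor of patrolling monocytes and an early response gene (-0.63 ± 0.13, adjusted p = 0.0188), and Chil3, a chitinase-like protein of alternatively activated macrophages and monocytes (-2.0 ± 0.57, adjusted p = 0.0397). Chil3 was at 6.21, 1.11, 2.30, 1.10 and 1.55 FPKM at day 11 and at 0.175, 0.880, 1.22, 0.182 and 0.261 FPKM at day 15. Itgam shares 72.4% of its 50-base stretches with other genes, and Chil3 shares 29.4%, so the values of Itgam in particular are uncertain. In all, 2 of 14 monocyte genes rose and 2 fell, beside 10.6% and 5.47% of all tested genes, and 6 rose and 2 fell without replicate 5. Of the 12 neutrophil genes 1 rose, the receptor gene Csf3r (1.15 ± 0.29, adjusted p = 0.0289), again a share below 10.6%, and 3 rose without replicate 5.

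Some genes of dendritic cells and of antigen presentation on MHC class II rose. Batf3, a factor required for type 1 conventional dendritic cells, was at 3.37, 4.62, 4.47, 3.48 and 3.72 FPKM and then 7.82, 8.28, 7.23, 8.92 and 4.83 FPKM, with no overlap (log2 change 0.88, SE 0.17, adjusted p = 0.0158). Irf8, which those cells also require and which interferon-γ induces, went from 29.0–40.8 to 40.3–78.1 FPKM (0.81 ± 0.16, adjusted p = 0.017), and the adhesion molecule Cadm1 from 4.30–12.3 to 11.6–19.3 FPKM (1.00 ± 0.25, adjusted p = 0.0271). Of 12 genes of these cells 4 rose, and 9 did so without replicate 5. From the mature dendritic cell list 3 of 13 rose, and 8 did without replicate 5. The 3 were chemokines that draw T cells: Ccl5 (67.9–132 to 101–306 FPKM, 1.27 ± 0.30, adjusted p = 0.0249), Ccl22 (0.980–1.26 to 0.907–4.55 FPKM, 1.32 ± 0.38, adjusted p = 0.0388) and Ccl17 (2.59 ± 0.58, adjusted p = 0.0215), which was listed at 0 in 3 day-11 tumors and stayed at or below 2.09 FPKM. In the isotype tumors the change was 1.94 ± 0.61, adjusted p = 0.252, for Ccl17, -0.04 ± 0.33 for Ccl5 and 0.01 ± 0.34 for Ccl22. Sirpa, which marks type 2 dendritic cells and other myeloid cells, was the 1 gene of 6 that rose on their list (0.89 ± 0.26, adjusted p = 0.0419), and 4 rose without replicate 5. Beside these dendritic cell lists, 10.6% of all tested genes rose, and 19.7% without replicate 5.

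H2-Ab1, the β chain of the class II molecule I-A, was at 406, 869, 549, 587 and 828 FPKM at day 11 and at 1476, 1670.4, 1781, 1820.2 and 842 FPKM at day 15. Day-15 replicates 1 to 4 lay above all of day 11, and replicate 5 lay within the day-11 range (log2 change 1.23, SE 0.25, adjusted p = 0.0168). H2-Eb1, the β chain of I-E, went from 368–1005 to 898–1926 FPKM (1.21 ± 0.28, adjusted p = 0.0234). The proteases that cut antigen and the invariant chain changed too, Ctss from 419–677 to 615–1362 FPKM (0.92 ± 0.21, adjusted p = 0.0214) and Ctsh from 90.8–131 to 114–217 FPKM (0.78 ± 0.18, adjusted p = 0.0218). In all, 8 of 14 class II genes rose and 0 fell, with a median of 0.82. The others were Lgmn, Cd74, H2-Aa and H2-DMa. Without replicate 5 the count was 13, and in the isotype tumors the median was 0.11. Class I genes changed less: H2-D1 (0.38 ± 0.07, adjusted p = 0.0156), H2-K1 (0.37 ± 0.08, adjusted p = 0.0171) and H2-T23 (0.64 ± 0.13, adjusted p = 0.0168) rose with Psmb8. The trimming peptidase Erap1 fell from 88.5–96.5 to 36.0–75.9 FPKM (-0.76 ± 0.16, adjusted p = 0.0179). In the isotype tumors Erap1 changed by -0.61 ± 0.14, adjusted p = 0.154, H2-D1 by 0.30 ± 0.22, H2-K1 by 0.31 ± 0.23 and H2-T23 by 0.13 ± 0.27. The median over 23 genes was 0.16, and 0.11 in the isotype tumors. Without replicate 5, 7 rose and 1 fell. Class I heavy chain genes are similar to each other, and 14.3% of the 50-base stretches of H2-D1 and 8.11% of those of H2-K1 occur in another gene.

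Class II genes share a promoter module whose Y box binds the factor NF-Y, so stretches of 2 promoters are shown with the letters CTGATTGG (searched on both strands) in capitals. They are from the RefSeq promoter table of build GRCm38.p6. H2-Aa, the α chain of I-A, was added after its values were seen.
H2-Eb1 (chr17:34305755-34305862, plus strand): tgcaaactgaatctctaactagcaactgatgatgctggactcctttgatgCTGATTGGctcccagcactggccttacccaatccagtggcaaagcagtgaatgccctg
H2-Aa (chr17:34287824-34287924, minus strand): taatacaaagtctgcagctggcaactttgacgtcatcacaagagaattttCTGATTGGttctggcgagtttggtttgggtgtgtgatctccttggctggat
The letters occur in 4 of the 12 promoters found for 10 of the 14 class II genes, those of H2-Aa, H2-Eb1, H2-Eb2 and H2-Oa, and in 4.1% of all 32851 promoters of the same 300 bases. A match describes the sequence and is not a measured binding site.

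Interferon-γ target genes changed unevenly. Of 20 genes of signaling and targets 8 rose and 0 fell, with a median of 0.31, and 12 rose and 1 fell without replicate 5. Besides Irf8 these included Ido1, the tryptophan-degrading enzyme, at 5.30, 8.17, 5.29, 6.22 and 7.95 FPKM and then 12.9, 10.3, 9.95, 14.3 and 8.48 FPKM with no overlap (log2 change 0.76, SE 0.17, adjusted p = 0.0219). Socs1, the feedback inhibitor of the pathway, rose from 20.4–65.4 to 54.9–73.1 FPKM (1.03 ± 0.26, adjusted p = 0.0281), with day-11 replicate 1 (65.4 FPKM) within the day-15 range. Ifngr1, the receptor chain that binds the cytokine, went from 35.1–41.3 to 36.6–63.6 FPKM (0.49 ± 0.14, adjusted p = 0.0354), and Icam1, Nos2, Irf1 and Batf2 also rose. The guanylate-binding proteins and immunity-related GTPases, which defend cells against intracellular pathogens, did not follow: 0 of 20 rose and 0 fell, with a median of -0.02. Gbp2b was at 13.5, 37.9, 20.8, 21.9 and 34.0 FPKM at day 11 and at 55.9, 53.2, 52.0, 28.0 and 30.2 FPKM at day 15. Day-15 replicates 1 to 3 lay above all of day 11 and the other 2 did not (log2 change 0.81, SE 0.29, adjusted p = 0.0794), and Irgm2 (0.29 ± 0.10, adjusted p = 0.0612) and Igtp (0.16 ± 0.08, adjusted p = 0.192) did not pass either. Without replicate 5, 2 of these genes rose and 1 fell. Cxcl9, an interferon-induced chemokine that was looked at after its values were known, was at 183–254 FPKM and then 163–199.8 FPKM (-0.21 ± 0.11, adjusted p = 0.177). Of 25 type I interferon genes 1 rose, Ifi27l2a (0.84 ± 0.22, adjusted p = 0.0302), a smaller share than the 10.6% of all tested genes, and 9 of the 25 rose without replicate 5 (background 19.7%).

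Interferon-γ acts through the γ-activated site, whose letters are TTCNNNGAA. The promoter of Irf8 holds it in 2 places, shown in capitals because Irf8 had the smallest p of the list.
Irf8 (chr8:120736137-120736263, plus strand): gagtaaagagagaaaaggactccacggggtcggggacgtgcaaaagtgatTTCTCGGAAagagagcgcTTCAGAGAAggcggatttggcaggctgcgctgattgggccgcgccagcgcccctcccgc
On either strand the letters occur in 3 of the 14 promoters found for 12 genes of the interferon-γ list, in 6 of the 12 promoters found for 11 genes of the guanylate-binding protein and GTPase list, and in 8.3% of all promoters. A second promoter of Irf8 in the table does not hold them.

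Among cytokines, 6 of 33 genes rose and 6 fell, against 10.6% and 5.47% of all tested genes. Without replicate 5, 13 rose and 6 fell (background 19.7% and 12.6%). Il1b, the inflammatory cytokine interleukin-1β (chr2:129364570-129371139), was at 55.3, 103, 88.2, 78.3 and 91.7 FPKM at day 11 and at 17.5, 32.0, 31.9, 26.2 and 26.1 FPKM at day 15. All day-15 tumors, replicate 5 included, lay below all of day 11 (log2 change -1.64, SE 0.19, adjusted p = 0.00958), and it was the 1 gene lower at the stricter threshold. In the isotype tumors Il1b was at 59.5–85.0 FPKM and then 18.2–34.2 FPKM (-1.39 ± 0.20, adjusted p = 0.0518), and the difference between the antibodies was -0.25 ± 0.29, adjusted p = 0.675. Il18rap, a chain of the interleukin-18 receptor (-0.57 ± 0.09, adjusted p = 0.0134), and Osm, oncostatin M (-0.72 ± 0.15, adjusted p = 0.0171), fell with no overlap, as did Il1a, Il1rn and Tgfb2 in the test. Ltb, the lymphotoxin-β of lymphoid tissue formation, rose, and was at 1.64, 3.39, 1.72, 3.21 and 2.23 FPKM at day 11 and at 11.0, 18.8, 14.0, 14.0 and 2.95 FPKM at day 15. Replicates 1 to 4 of day 15 were far above day 11 and replicate 5 was not (log2 change 2.11, SE 0.43, adjusted p = 0.0178). Of 37 chemokine and receptor genes 9 rose (16 without replicate 5), and 1 fell: Ccl24, the eosinophil attractant eotaxin-2, at 12.4, 4.56, 24.7, 26.7 and 28.0 FPKM and then 1.28, 6.19, 4.38, 2.82 and 3.58 FPKM (log2 change -2.27, SE 0.52, adjusted p = 0.0228).

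**Figure D4:**
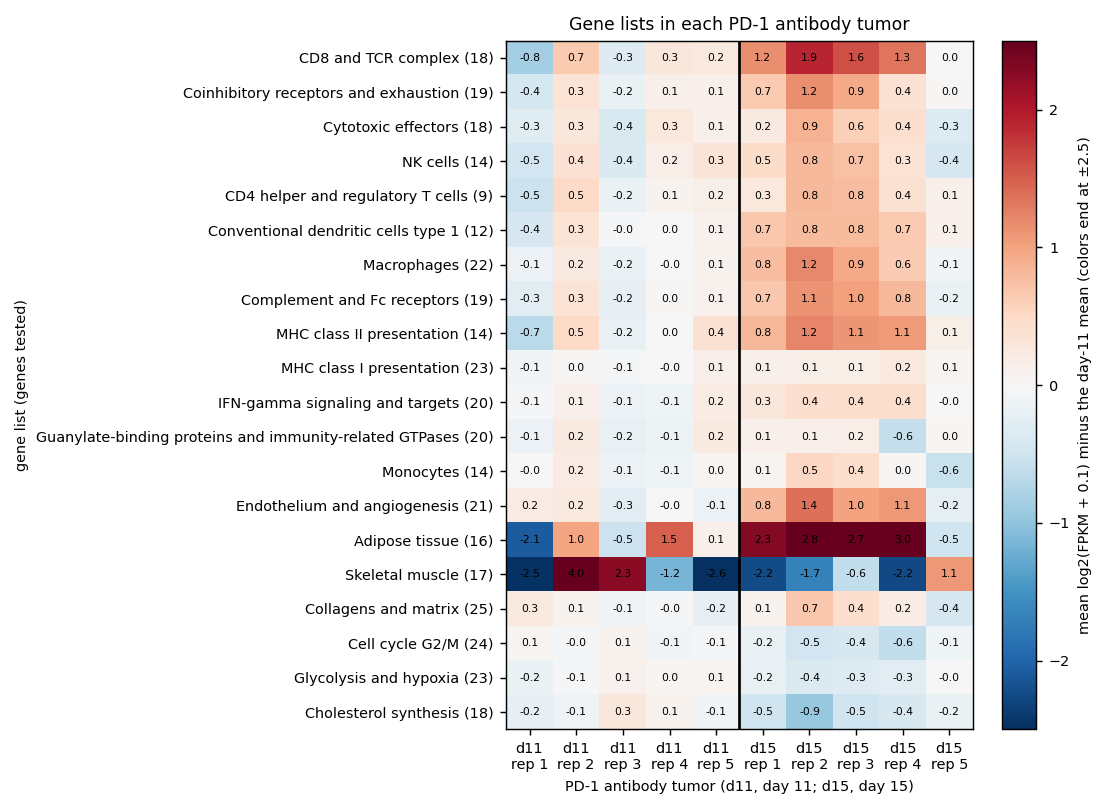
Mean log2(FPKM + 0.1) of 20 gene lists in each PD-1 antibody tumor, relative to the mean of the 5 day-11 tumors. Columns are tumors, rows are lists with the number of genes tested, and colors end at ±2.5. The T cell, macrophage, class II, endothelial and adipose lists are high in day-15 replicates 1 to 4 and near the day-11 level in replicate 5, and skeletal muscle varies within both groups.

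Some genes of mitosis fell. Tpx2, a spindle assembly factor, was at 53.9, 48.8, 55.6, 50.2 and 51.7 FPKM at day 11 and at 39.6, 36.1, 37.2, 36.4 and 46.4 FPKM at day 15. The groups did not overlap (log2 change -0.41, SE 0.08, adjusted p = 0.0158). Ccnb1, cyclin B1 (-0.40 ± 0.09, adjusted p = 0.0197), Ccna2, cyclin A2 (-0.31 ± 0.07, adjusted p = 0.0223), and Hmmr, a spindle protein (-0.64 ± 0.16, adjusted p = 0.0259), fell too, and with Top2a they made 5 of 24 G2/M genes, with a median of -0.28, beside 5.47% of all tested genes that fell. Without replicate 5, 12 fell (background 12.6%). Of 23 G1/S genes 0 passed, with a median of -0.03. Mki67, the proliferation marker Ki-67, was at 32.7, 41.1, 39.7, 35.9 and 34.8 FPKM and then 31.5, 24.8, 23.3, 7.30 and 36.6 FPKM and did not pass (log2 change -0.75, SE 0.35, adjusted p = 0.148). Its lowest value was in day-15 replicate 4, the tumor with the lowest levels of long transcripts. Rad21, a subunit of the cohesin ring, was at 104, 99.7, 105, 105 and 102 FPKM and then 74.1, 65.6, 67.5, 66.3 and 82.3 FPKM, below day 11 in all 5 tumors (-0.54 ± 0.07, adjusted p = 0.00958). On the list of apoptosis genes and p53 targets 2 of 20 rose, Bax (0.45 ± 0.07, adjusted p = 0.0155) and Cdkn1a (0.28 ± 0.09, adjusted p = 0.0464), which is no more than the 10.6% of all tested genes, with a median of 0.07. Without replicate 5, 5 rose (background 19.7%).

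Sterol synthesis genes fell. Hmgcs1, an early enzyme of the pathway, was at 82.6, 86.5, 109.6, 109 and 91.7 FPKM at day 11 and at 53.5, 36.1, 52.8, 40.4 and 68.1 FPKM at day 15. The groups were apart (log2 change -0.96, SE 0.16, adjusted p = 0.0155). The late-step enzymes Dhcr7 (-0.48 ± 0.11, adjusted p = 0.0214) and Sc5d (-0.45 ± 0.11, adjusted p = 0.0239) fell as well. In all, 10 of 18 genes fell and 0 rose, with a median of -0.49, and 14 fell without replicate 5. Others among them were Msmo1, Sqle, Idi1 and Cyp51. Without replicate 3 none passed, at a median of -0.48. In the isotype tumors the median was -0.11, and for Hmgcs1 the change was -0.34 ± 0.11, adjusted p = 0.252.

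These genes are activated by SREBP factors through sterol response elements, and the promoter of Hmgcs1 is shown with the letters TCACNCCAC in capitals.
Hmgcs1 (chr13:119690164-119690272, plus strand): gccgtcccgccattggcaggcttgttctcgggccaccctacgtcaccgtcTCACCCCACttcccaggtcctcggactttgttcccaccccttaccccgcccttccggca
The letters occur on either strand in this 1 of the 14 promoters found for 12 of the 18 genes and in 1.24% of all promoters.

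Hypoxia and glycolysis genes fell in part, 6 of 23, while 1 rose. Ndrg1, a stress gene that low oxygen induces, was at 146, 167, 217, 197 and 189 FPKM and then 114, 93.2, 100.4, 104 and 155 FPKM. Day-15 replicates 1 to 4 lay below all of day 11, with replicate 5 in the day-11 range (log2 change -0.70, SE 0.14, adjusted p = 0.0172). Bnip3, a mitophagy receptor (-0.65 ± 0.14, adjusted p = 0.0212), and the glycolytic enzyme Pgk1 (-0.47 ± 0.12, adjusted p = 0.0292) fell with Slc2a1, Pdk1 and P4ha2, and Pfkfb4, a regulator of glycolysis, rose (0.66 ± 0.15, adjusted p = 0.023). Processed copies are similar to Pgk1, and 68.0% of its 50-base stretches occur in another gene. Without replicate 5, 12 fell and 2 rose, and with the length trend removed 4 fell and 1 rose. Nuclear genes of oxidative phosphorylation had 6 of 22 higher and 1 lower, which became 1 and 1 once the length trend was removed. Early response genes were lower in 7 of 22 cases and higher in 2, among them Fos at 48.5, 20.7, 25.9, 12.6 and 27.5 FPKM and then 10.3, 15.8, 10.9, 9.46 and 7.95 FPKM (log2 change -1.21, SE 0.30, adjusted p = 0.0276) and Mt2, a metallothionein (-0.53 ± 0.13, adjusted p = 0.0276). Without day-15 replicate 4, 0 of these fell. Ptgs2, the prostaglandin synthase COX-2, fell with no overlap (-0.81 ± 0.21, adjusted p = 0.0299).

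Genes of endothelium rose in 8 of 21 cases (10.6% of all tested genes), with a median of 0.88, and 16 rose without replicate 5. Cldn5, a tight junction protein of endothelium, was at 3.60, 2.24, 1.45, 1.55 and 0.845 FPKM and then 6.79, 11.3, 7.83, 10.4 and 1.85 FPKM, high in day-15 replicates 1 to 4 (log2 change 1.85, SE 0.48, adjusted p = 0.0311). Eng, the TGF-β coreceptor endoglin (0.79 ± 0.21, adjusted p = 0.0327), and Flt4, the VEGF receptor of lymphatic endothelium (1.59 ± 0.43, adjusted p = 0.0351), rose with Pecam1, Icam1, Cdh5, Plvap and Kdr. Without day-15 replicate 4, 0 endothelial genes rose. Flt1, VEGF receptor 1, fell, from 20.2, 18.4, 21.5, 20.0 and 19.8 FPKM to 14.3, 15.5, 14.6, 14.2 and 17.2 FPKM, with no overlap (log2 change -0.40, SE 0.08, adjusted p = 0.0158). On the fibroblast list, 2 of 17 genes rose and 2 fell (against 10.6% and 5.47% of all tested), with a median of 0.39, and 9 rose and 2 fell without replicate 5, with a median of 0.74. Those that fell were growth factor receptors of mesenchymal cells, Pdgfrb from 39.1–63.8 to 28.6–35.7 FPKM (-0.61 ± 0.13, adjusted p = 0.0185) and Pdgfra from 26.0–36.3 to 20.7–27.2 FPKM (-0.42 ± 0.11, adjusted p = 0.029). Those that rose were Tagln, a contractile protein of smooth muscle and myofibroblasts (1.55 ± 0.41, adjusted p = 0.0323), and Thy1, a surface protein of fibroblasts and T cells. Among 25 matrix genes Col6a3 (-0.36 ± 0.09, adjusted p = 0.0271) and Col6a1 (-0.43 ± 0.11, adjusted p = 0.0315) fell and Col14a1 rose (1.89 ± 0.56, adjusted p = 0.0445), beside 5.47% and 10.6% of all tested genes. Without replicate 5, 7 rose and 3 fell (background 19.7% and 12.6%). Ltbp1, which binds latent TGF-β, fell, from 31.9–37.9 to 22.1–31.3 FPKM (-0.54 ± 0.10, adjusted p = 0.0158), and so did Tgfb2 (-0.86 ± 0.21, adjusted p = 0.0255), while Id1, a target of bone morphogenetic proteins, rose (1.20 ± 0.33, adjusted p = 0.0365). Of the proteases, Mmp10, a stromelysin, was at 66.9–176 FPKM and then 36.5–64.7 FPKM (-1.14 ± 0.24, adjusted p = 0.0179), and Adamts1 fell (-0.52 ± 0.14, adjusted p = 0.0363).

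Genes of fat tissue and mast cells were high in the same 4 day-15 tumors. Thrsp, a regulator of fat synthesis in adipose tissue, was at 0.140, 1.33, 0.0895, 1.33 and 0.234 FPKM and then 23.6, 90.8, 47.2, 56.6 and 2.19 FPKM (log2 change 5.73, SE 0.96, adjusted p = 0.0155). Fasn (0.86 ± 0.24, adjusted p = 0.0386), Scd1 (1.63 ± 0.48, adjusted p = 0.0438) and Acaca (0.46 ± 0.14, adjusted p = 0.0465), enzymes of fatty acid synthesis that tumor cells also express, and Retn rose, so that 5 of 16 adipose genes passed, with a median of 1.95. Without replicate 5, 14 passed, without replicate 4, 1 passed, and without replicate 3, 0 passed. Plin1, a coat protein of fat droplets, was at 0.272–7.04 FPKM and then 1.65–23.01 FPKM and did not pass (2.51 ± 0.87, adjusted p = 0.069). Of 17 muscle genes 0 passed (Myh1, -1.03 ± 0.56, adjusted p = 0.201). Tpsb2, a mast cell tryptase, went from 0.413, 4.62, 1.90, 3.26 and 2.76 FPKM to 13.8, 11.7, 18.0, 21.6 and 3.90 FPKM (log2 change 2.49, SE 0.59, adjusted p = 0.0246), and Kit, the stem cell factor receptor, from 1.19–2.07 to 1.68–5.46 FPKM (1.03 ± 0.28, adjusted p = 0.0336). Of 11 mast cell and eosinophil genes these 2 rose, and 7 did without replicate 5. On the B cell list 1 of 13 rose (3 without replicate 5), Cd22 (1.58 ± 0.39, adjusted p = 0.0266), with Cd79b at 1.31 ± 0.48, adjusted p = 0.0802. Pf4, platelet factor 4, which macrophages also express, was at 12.8–17.9 FPKM and then 25.8–59.0 FPKM with no overlap (1.34 ± 0.19, adjusted p = 0.0111).

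Genes of the cultured line were checked against the label. Vim was at 916 to 1026 FPKM in the 3 cultures and at 1450.4–1579 and 1318–1514 FPKM in the treated tumors. Cdh2, N-cadherin, was at 23.2 to 24.0 FPKM in culture, at 21.8, 22.4, 25.4, 26.2 and 22.9 FPKM in the day-11 tumors and at 15.9, 15.3, 13.6, 14.2 and 21.1 FPKM in the day-15 tumors. It fell with no overlap (log2 change -0.58, SE 0.12, adjusted p = 0.0166). Of the other genes expressed in culture, Prl2c2 and Prl2c3 had higher ranges at day 15, and Met and Spp1 lower ranges, all with overlap. Epithelial keratins were nearly absent from the cultures, with Krt8, Krt18 and Krt19 at or below 0.353 FPKM. In the tumors Krt8 was at 0.0495, 0.944, 2.09, 1.48 and 1.99 FPKM at day 11 and at 16.8, 9.61, 1.09, 11.3 and 0 FPKM at day 15, high in the day-15 replicates 1, 2 and 4. Krt19 was high in the same 3 tumors (16.2, 15.6, 1.61, 13.4 and 0.255 FPKM). Neither Krt8 (1.52 ± 1.32, adjusted p = 0.419) nor Krt19 (2.57 ± 1.00, adjusted p = 0.0933) passed. Epcam, an epithelial adhesion molecule at or below 0.2305 FPKM in culture, rose from 0.586–1.25 to 0.838–3.56 FPKM (1.28 ± 0.37, adjusted p = 0.0423), and Krt7 was at 1.77 ± 0.60, adjusted p = 0.0652. On the whole MC-38 list, which includes these epithelial genes, 1 of 18 tested genes rose and 1 fell, beside 10.6% and 5.47% of all tested genes. Its median was 0.41, with 11 changes above 0 and 7 below. Without replicate 5, 7 rose and 2 fell (background 19.7% and 12.6%). The 14 genes of the skin list had 4 tested and 0 passed.

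**Figure D5:**
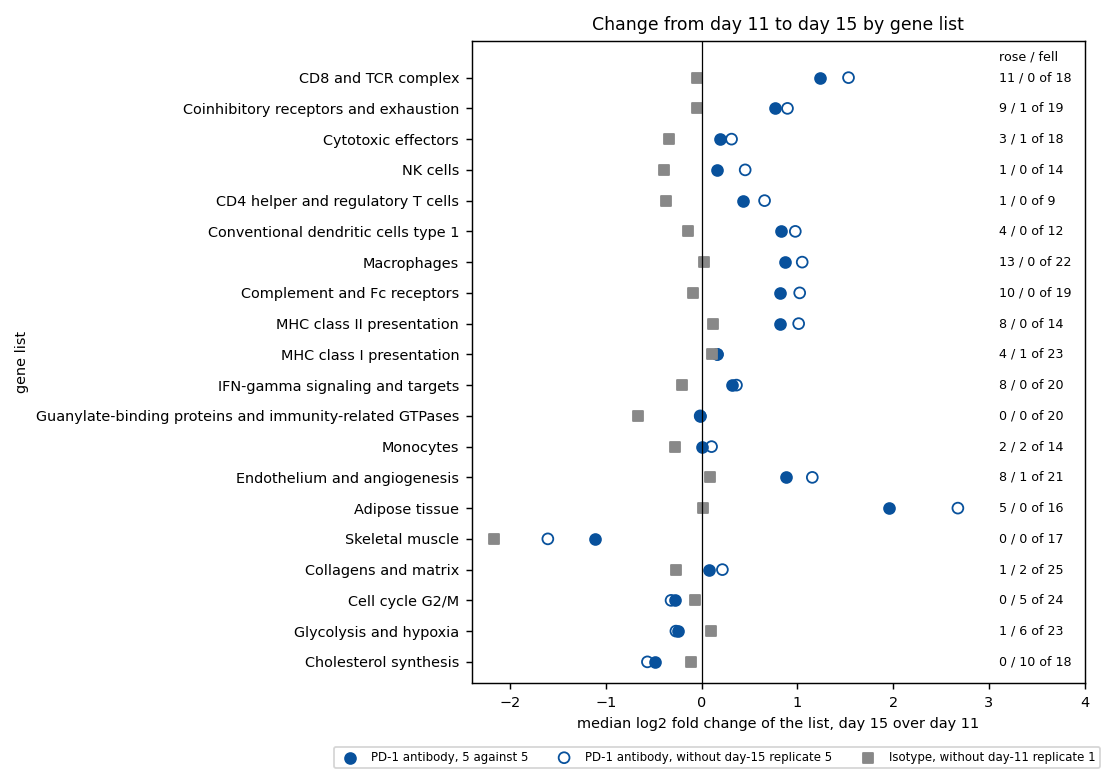
Median log2 fold change from day 11 to day 15 for 20 gene lists. Filled circles are the 5 against 5 PD-1 antibody tumors, open circles leave out day-15 replicate 5, and squares are the isotype tumors without day-11 replicate 1. Numbers give the genes that rose and fell among those tested. The CD8 list stood at 1.23 in treated and at -0.05 in isotype tumors.

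The isotype tumors show what the same interval held without the PD-1 antibody. With limma, 0 of 14538 genes passed at adjusted p under 0.05 without day-11 replicate 1 (2467 at an unadjusted p under 0.05), and 0 of 14445 with it (996). In a fit of the difference between the antibodies 0 of 15307 genes passed without that tumor (2802 at an unadjusted p under 0.05), and 0 of 15289 with it (1182). No change described above is thus shown to differ between treated and isotype tumors at the level of a single gene. For Cd8a the difference was 1.58 ± 0.70, adjusted p = 0.241, for Pdcd1 1.25 ± 0.64, adjusted p = 0.301, for Gzmb 1.17 ± 0.49, adjusted p = 0.22, for Apoe 2.21 ± 0.45, adjusted p = 0.13 and for H2-Ab1 1.04 ± 0.47, adjusted p = 0.247. Cd247 had one of the larger differences relative to its error, 1.5 ± 0.28, adjusted p = 0.13. With array weights, which give outlying tumors less influence, 382 genes passed in the isotype tumors and 2924 in the fit of the difference. A count of 0 does not show that genes did not change or did not differ. The genes with the smallest p in the difference with all tumors included Prkcq, a kinase of T cell receptor signaling (1.91 ± 0.46, adjusted p = 0.623), and Ccl3, a chemokine (1.58 ± 0.43, adjusted p = 0.623), on the higher side. On the lower side were Hhip, a hedgehog inhibitor (-1.78 ± 0.45, adjusted p = 0.623), and Higd1a, a mitochondrial protein that low oxygen induces (-0.87 ± 0.22, adjusted p = 0.623). The median over all genes was -0.27 in that fit and 0.02 without isotype day-11 replicate 1. These 4 differences therefore include that tumor, while the isotype FPKM values leave it out. Hhip was at 3.44, 2.66, 3.36, 3.15 and 2.84 FPKM at day 11 and at 1.04, 0.578, 0.640, 0.616 and 2.15 FPKM at day 15 in treated tumors, and at 4.05–5.52 and 2.51–5.67 FPKM in isotype tumors.

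The genes with the strictest calls were not all of known function in tumors. Besides Apoe, Trem2 and Il1b they were Rpl9-ps6, Ftl1-ps1, Gm28439, Dedd2, Rpl17-ps10 and Tbx1. Rpl9-ps6, annotated as a copy of a ribosomal protein gene, had the smallest adjusted p, at 16.5, 12.4, 13.2, 13.0 and 13.1 FPKM and then 39.3, 31.3, 28.1, 36.4 and 37.0 FPKM (log2 change 1.33, SE 0.11, adjusted p = 0.00118). Of its 50-base stretches 89.2% occur in another gene, and for Ftl1-ps1 (1.43 ± 0.16, adjusted p = 0.00958), Rpl17-ps10 (2.34 ± 0.31, adjusted p = 0.00958) and Gm28439 (1.06 ± 0.13, adjusted p = 0.00958) the shares were 86.4%, 85.8% and, for the last, the whole sequence, so their values are uncertain. Processed pseudogenes as a class had a median log2 change of 0.42 over 318 tested, and in the isotype tumors Rpl9-ps6 changed by 2.01 ± 0.24, adjusted p = 0.0518. There Ftl1-ps1 changed by 1.25 ± 0.18, adjusted p = 0.0518, Rpl17-ps10 by 1.85 ± 0.74, adjusted p = 0.279, and Gm28439 by 0.30 ± 0.44, adjusted p = 0.689. Rps27, a short ribosomal protein gene, was also among the higher genes with the smallest p (0.72 ± 0.09, adjusted p = 0.00958), and so was Gm12715, a processed pseudogene that is uncertain on the same ground (0.71 ± 0.08, adjusted p = 0.00958, 92.8% of its stretches in another gene). In the isotype tumors Rps27 changed by 1.30 ± 0.26, adjusted p = 0.125, and Gm12715 by 0.65 ± 0.28, adjusted p = 0.286. Dedd2, a death effector domain protein, was at 2.35, 1.98, 1.75, 1.74 and 2.07 FPKM and then 4.90, 5.32, 5.45, 4.35 and 3.34 FPKM, with no overlap (log2 change 1.19, SE 0.16, adjusted p = 0.00958). Tbx1, a developmental factor named after its values were seen, was listed at 0 in 4 day-11 tumors and stood at 1.06, 1.24, 0.792, 1.47 and 0.339 FPKM at day 15. Fbrsl1 rose in every tumor of day 15 (0.67 ± 0.09, adjusted p = 0.00958). On the lower side with no overlap were Ammecr1 (-0.73 ± 0.09, adjusted p = 0.00958), Tspan6, a tetraspanin (-0.51 ± 0.07, adjusted p = 0.0105), Nucks1, a chromatin protein (-0.53 ± 0.07, adjusted p = 0.0111), and Lsm12, an RNA-binding protein (-0.54 ± 0.08, adjusted p = 0.0111).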

How the data were processed

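Total RNA of snap-frozen whole MC-38 tumors had been depleted of ribosomal RNA and sequenced as 50-base read pairs, with reads aligned to mouse build 38 by OSA in Array Studio allowing 2 mismatches and assigned to Ensembl release 86 gene models. The authors deposited 1 table of FPKM values for 48795 genes, scaled to length and mapped fragments. Read counts were not used here and FPKM do not give them, so the depth of each tumor is not known from the table and no counting interval is given. The study's methods name count tests with DESeq2, which FPKM do not allow.

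Groups came from the sample labels. The 10 tumors are labelled as separate samples. The limma p-values set the difference between group means against the spread between tumors, which limma estimates partly from other genes. Genes whose mean reached 0.5 FPKM at day 11 or day 15 were fitted as log2(FPKM + 0.1) with limma 3.58.1 (R 4.3.3; lmFit, eBayes with trend), with Benjamini-Hochberg adjustment over all genes tested, at adjusted p under 0.05, and at 0.01 with 2-fold. The isotype groups were fitted likewise, and the difference of both changes in a fit of all 20 tumors. Ratios and the mitochondrial percentage used exact permutation tests over all splits of 5 against 5. The fits were checked on simulated data with known changes, at adjusted p under 0.05. Of 100 genes with a log2 change of 1, 73 passed in the treated fit, 25 in the isotype fit and 14 in the difference. At a log2 change of 2 these were 93, 71 and 62 of 100. The changed genes had a mean of at least 2 FPKM, so lower genes were not covered. The spread used for the isotype and difference fits included isotype day-11 replicate 1. Errors were drawn independently for each gene and tumor, so an outlying tumor that moves many genes together was not simulated.

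Genes were annotated with GENCODE M21 (48435 IDs matched, 99.3%), and promoters were from RefSeq. The members and the gene lists were chosen with earlier results of these data known. Named genes are up to 10 a direction with the smallest p or strictest call, up to 4 of each list by p, a set of T cell, interferon and proliferation genes, and up to 5 a direction by the p of the difference. Adipoq, Plin1, Acta1, Krt8, Krt18, Krt19, H2-Aa, Cxcl9, Vim, Ptprc and Tbx1, and the genes named without a value, were chosen after their values were seen. A few list members are not reported here by name. The share of 50-base stretches found in another gene was counted from the GENCODE transcripts. Alternatives were another pseudocount, filter and scaling, a fit of 4 groups, no trend, array weights, a replicate block, each tumor left out and, added after seeing the data, removal of the length trend and of 1 isotype tumor.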

Additional observations from a re-analysis of the deposited data

Results flagged for a closer look

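In each group of 5 tumors, a tumor was marked where its gap to the nearest other exceeded 0.71 of the group's range (Dixon's criterion), which chance does for about 1 in 20 groups. Of 284 groups tested, 36 were marked (12.7%), 22 of them for PD-1 antibody day-15 replicate 5 and 3 for replicate 4.

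Day-15 replicate 5 was low in T cell genes, with Gzmb at 20.9, Cd3g at 8.65 and Itgae at 1.20 FPKM. It was low in myeloid and interferon genes, with C1qa at 492, C1qc at 359, Fcer1g at 239, Itgam at 21.1, Csf3r at 6.62, Ifngr1 at 36.6, Ifi27l2a at 57.5 and Cxcl16 at 76.9 FPKM. Class II genes were low in it too, H2-Ab1 at 842, H2-Eb1 at 898, H2-Aa at 958 and Ctsh at 114 FPKM, as were Cldn5 at 1.85 and Eng at 13.7 FPKM and the fat cell genes Adipoq at 2.02 and Plin1 at 1.65 FPKM. It was high in Ccna2 at 46.2, Col6a3 at 255 and Ltbp1 at 31.3 FPKM.

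Day-15 replicate 4 was low in Mki67 at 7.30 FPKM and in the mitochondrially encoded percentage of FPKM at 2.89%, and high in H2-K1 at 2449.6 FPKM. At day 11 replicate 1 stood apart in Cd247 (3.05 FPKM), Ikzf4 (0.0174 FPKM), Adamts1 (12.9 FPKM), Rpl9-ps6 (16.5 FPKM), Acaca (11.6 FPKM), Krt8 (0.0495 FPKM) and Tbx1 (0.0503 FPKM, listed at 0 in the others), replicate 2 in Gm28439 (17.5 FPKM), replicate 3 in Gzma (5.60 FPKM) and replicate 4 in the mitochondrially encoded percentage (4.44%). Isotype day-11 replicate 1 was at 54.6% mitochondrially encoded.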

How the results depend on the processing

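Of the 140 genes given with values, 115 passed 0.05 with all treated tumors. All 115 kept their direction in every alternative run and passed without day-15 replicate 5, the tumor nearest to day 11. Leaving that tumor out tends to widen the difference between days, so passing without it is no separate support. Many of the 115 did not pass in other runs. The call at 0.05 was lost by 106 in the fit of 4 groups, and by 11 in that fit without isotype day-11 replicate 1. It was lost by 96 without day-15 replicate 3. It was lost by 72 and 63 without day-11 replicates 3 and 4, and by 60 with the replicate block. Acta1, which did not pass, turned from negative to 0.57 without day-11 replicate 2 and 0.22 without day-11 replicate 3, the tumors rich in muscle transcripts, with -1.79 as the lowest value when 1 tumor was left out. The strict count of the treated tumors was 9 and the count at 0.05 was 2412. They were 5 and 2500 with a pseudocount of 1, 2 and 1155 with no filter (26031 genes tested), 3 and 2341 under median-of-ratios scaling, 12 and 2415 under upper-quartile scaling, 1 and 1836 without the trend, 1 and 2457 without mitochondrially encoded genes in the total, and 955 and 6535 with array weights. A fit of all 4 groups gave 3 and 25, and 195 and 2637 without isotype day-11 replicate 1. With the length trend removed the counts were 11 and 2376, and 815 and 4737 without day-15 replicate 5 as well. Leaving out 1 tumor gave 1 to 849 strict calls and 33 to 4892 at 0.05, the strict count being 44 without day-11 replicate 1. Same-numbered tumors of the 2 days had correlations of deviations of -0.11 to 0.13, so the numbers do not pair them, and with the replicate block the counts were 2 and 627. The cause of these changes was not tested.

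In the isotype tumors the counts of 0 became 3 and 31 in the fit of 4 groups and 29 and 382 with array weights, and 0 to 1 and 0 to 3 when 1 tumor was left out. For the difference they became 1 and 1 with no filter, 506 and 2924 with array weights, and stayed at 0 to 0 when 1 tumor was left out. The block gave 0 for both. Removing the mitochondrially encoded genes, or the scaling, moved the split of higher and lower calls as stated above. The table does not give the depth of each tumor, and genes near 0.1 FPKM have fold changes that depend on the pseudocount.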

Other observations

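General leukocyte genes rose in 8 of 13 cases, with a median log2 change of 0.72. Ptprc, the leukocyte antigen CD45, was at 26.2, 58.9, 32.9, 38.6 and 45.8 FPKM at day 11 and at 64.1, 74.2, 66.3, 20.9 and 36.4 FPKM at day 15, low in replicate 4, in which long transcripts were low, and did not pass (0.28 ± 0.34, adjusted p = 0.564). Of 12 genes of immune-suppressive metabolism 3 rose (Ido1, Entpd1 and Nos2) and 1 fell (Ptgs2). Of 5 aryl hydrocarbon receptor genes 1 fell, the receptor gene Ahr itself, and it did so by 0.44 on the log2 scale.

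Ribosomal protein genes had 3 of 24 higher and 1 lower with all treated tumors, beside 10.6% and 5.47% of all tested genes. Their median was 0.13, and it was 0.47 in the isotype tumors. Of 13 mitochondrially encoded genes 1 fell, mt-Atp6. In the isotype tumors the median of B and plasma cell genes was 0.85, close to the 0.86 of the treated tumors, whereas it was -0.66 for the guanylate-binding proteins and immunity-related GTPases against -0.02. These differences between the antibodies were not tested for lists.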
